A study of Mus musculus with 6 samples.

Results

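The genes described here encode the enzymes of the lower part of glycolysis, from aldolase to lactate dehydrogenase, in the forms of muscle and of other tissues. The 10 members are Aldoa, Aldoc, Gapdh, Pgk1, Pgam1, Pgam2, Eno1, Eno3, Ldha and Ldhb. They were picked by symbol from the 52550 genes of the deposited table, by a list of symbols written with earlier results of these data known. Measured values entered only where a symbol stood on several rows, and the row with the highest mean was then taken. This left out 1 row. All 10 were found, and 9 of them, all but Aldoc, averaged 1 FPKM or more and were tested. FPKM are fragments scaled to transcript length and library total, so levels can be set side by side between genes. The libraries came from left ventricles of C57BL/6J mice aged 12 months. In the labels 3 are wild-type (WT) and 3 overexpress PGC1alpha (group name PKI). The labels state neither the construct nor its promoter, nor whether each library is a separate animal, and p-values therefore reflect the spread among the 6 libraries alone, which may be technical.

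Lower glycolysis cuts a sugar bisphosphate into triose phosphates and carries them to pyruvate, with ATP made by phosphoglycerate kinase and, after enolase, by pyruvate kinase. Several of these enzymes exist as products of separate genes. Adult striated muscle uses the phosphoglycerate mutase of Pgam2 and the enolase of Eno3, while most other cells use those of Pgam1 and Eno1. Lactate dehydrogenase is built from the heart-type subunit of Ldhb and the subunit of Ldha, which is abundant in skeletal muscle and many other tissues. Aldoa encodes the aldolase of muscle and many other cells, and Aldoc that of brain.

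Ppargc1a, which encodes PGC-1α, stood at 14.2, 12.8 and 12.4 FPKM in WT and at 11.6, 11.8 and 11.4 FPKM in the libraries labelled PKI. The label was therefore not borne out by this gene's values (log2 change −0.16, limma adjusted p = 0.0967), and every direction below compares libraries by their label (PKI relative to WT). The values of all genes were displaced between the groups. The median log2 change over 9907 tested genes was 0.21 as deposited and −0.02 once each library was divided by its median-of-ratios size factor ("after scaling"). The 8 cardiomyocyte markers (Myh6, Tnnt2, Tnni3, Actc1, Myl2, Ryr2, Pln and Mb) were all present, with summed levels of 14968 to 15775 FPKM in WT and 11945 to 15984 in PKI. The lowest sum was that of PKI replicate 2, where Mb (myoglobin) stood at 2753 FPKM, against 5613 to 6211 in the other 5 libraries. Of the 8 markers, Actc1 rose and Tnni3, Myl2 and Pln fell, where 36.4% of all tested genes rose and 2.96% fell. After scaling 6 fell and 0 rose, against 9.18% and 7.82% of all tested genes.

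Of the 9 tested members, 5 rose (Aldoa, Gapdh, Pgk1, Pgam1 and Eno1), 1 fell (Ldhb) and 3 did not pass (Pgam2, Eno3 and Ldha), at an adjusted p under 0.05 in limma. Among all tested genes 39.4% were called by the same rule, 36.4% higher and 2.96% lower. After scaling, 1 member rose (Pgam1) and 2 fell (Eno3 and Ldhb), where 17% of all tested genes were called, 7.82% higher and 9.18% lower. The median log2 change of the 9 members was 0.19 as deposited, close to the 0.21 of all genes. After scaling it was −0.10, against −0.02 for all genes. The medians of all genes include low genes, whose changes log2(FPKM + 1) understates. As deposited, 7 members had all PKI libraries above all WT libraries, as had 51.3% of all tested genes, and 1 had them below, as had 4.53%. After scaling, 2 members, Pgam1 and Eno1, lay above (16.6% of all tested genes). A further 4, Pgam2, Eno3, Ldhb and Ldha, lay below (20.7%). Of these, Pgam2 and Ldha had lain above as deposited. The members were spread over the distribution of all genes: 97.7% of tested genes had a smaller change than Pgam1 and 87.6% a smaller change than Eno1, but only 8.11% a smaller change than Eno3 and 5.45% a smaller change than Ldhb. Gapdh and Pgk1, at 64.5% and 65.6%, and Aldoa, Pgam2 and Ldha, at 47.1%, 39.8% and 39.5%, lay near the middle.

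**Figure D1:**
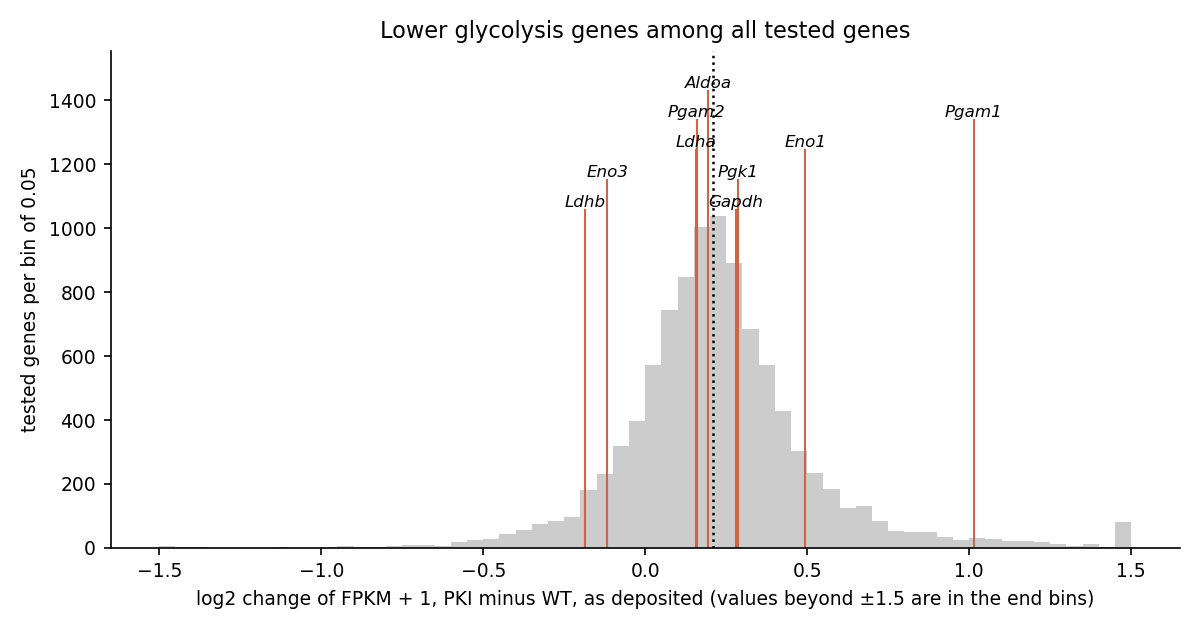
Histogram of the log2 change (PKI minus WT, log2 of FPKM + 1, as deposited) over the 9907 tested genes, with vertical lines at the 9 tested members and a dotted line at the median of all genes, 0.21. Pgam1 (1.01) and Eno1 (0.49) lie to the right of the bulk and Ldhb (−0.19) and Eno3 (−0.12) to its left.

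In WT the most abundant member was Ldhb, at a mean of 499.7 FPKM, followed by Pgam2 (332), Eno3 (309.9), Gapdh (265), Aldoa (236), Ldha (89.2), Pgk1 (70.6), Pgam1 (12.5) and Eno1 (8.51). The ranges of the 3 libraries did not overlap between any neighbours in this WT order, Aldoc being listed at 0. In PKI the order was Ldhb (439), Pgam2 (372), Gapdh (323), Eno3 (286), Aldoa (270), Ldha (99.6), Pgk1 (86.2), Pgam1 (26.1) and Eno1 (12.4). Gapdh and Eno3 had thus changed places, and in PKI the ranges of Eno3 and Aldoa overlapped. The forms of striated muscle and heart stood above their partners by large factors in both groups. The summed level of the 10 members was 1824 ± 30.2 FPKM in WT and 1914 ± 89.2 in PKI (SD, n = 3 each). The mitochondrial genome and its nuclear copies took 82.0% ± 0.288 of all FPKM in WT and 78.1% ± 0.133 in PKI. The 10 members together made up 1.34% ± 0.0204 (SD, n = 3) of the FPKM outside the mitochondrial genome and its nuclear copies in WT and 1.22% ± 0.0459 (SD, n = 3) in PKI.

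**Figure D2:**
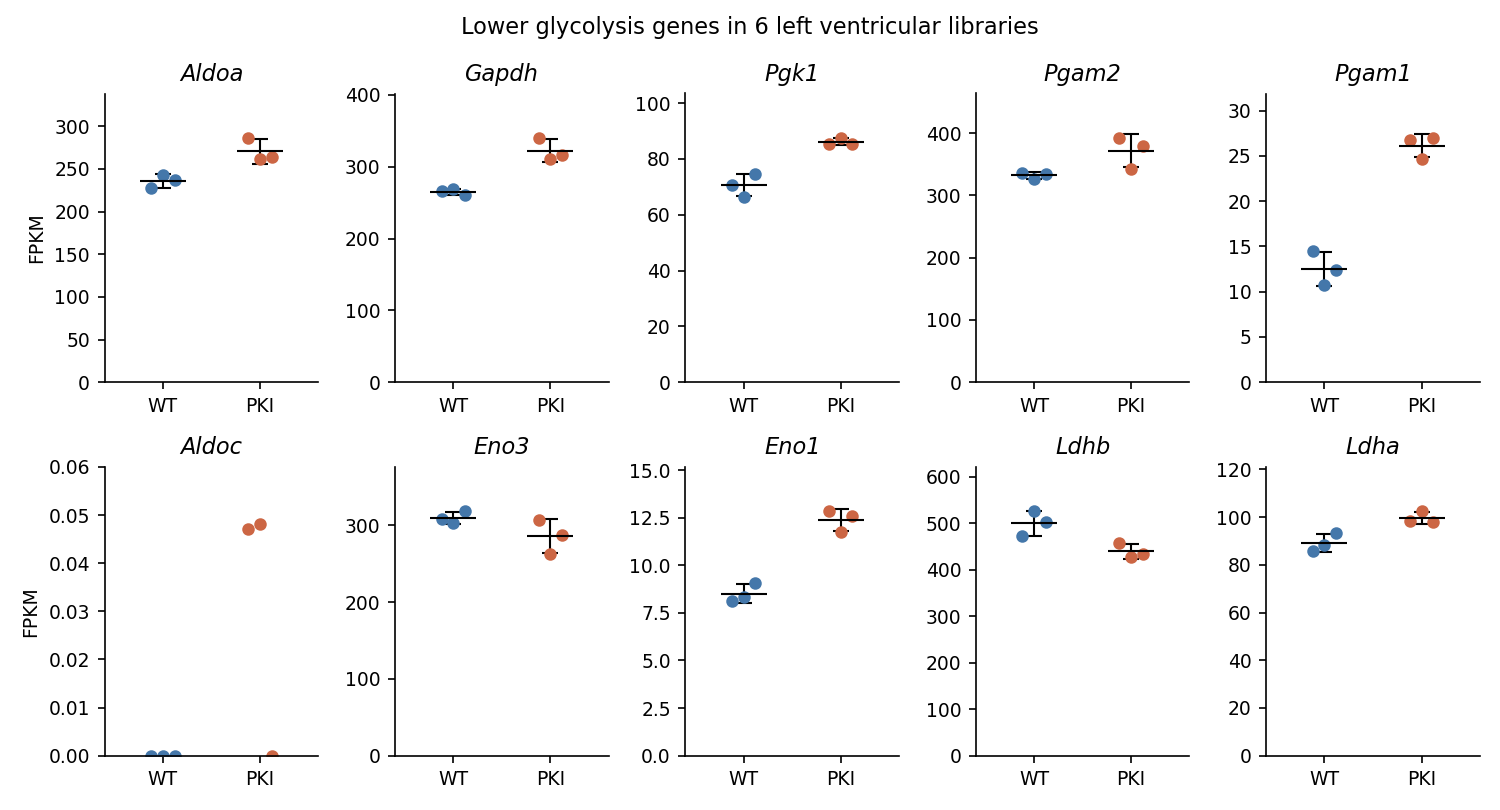
FPKM of each of the 10 members in the 3 WT and 3 PKI libraries (points), with the mean and SD of each group (black; none for Aldoc), each panel starting at 0. Pgam1 and Eno1 show the widest gaps between the groups relative to their level, and Ldhb is the member whose PKI libraries all lie below WT.

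Pgam1, the phosphoglycerate mutase of most tissues, had the largest change of the 9 tested members. It stood at 14.5, 10.7 and 12.4 FPKM in WT and at 26.7, 24.7 and 27.0 FPKM in PKI. The groups were far apart, and the WT libraries varied more than the PKI libraries. Its mean was 2.09-fold higher in PKI (log2 change 1.01, SE 0.11, limma adjusted p = 0.00114), and it was also called after scaling (log2 0.73, adjusted p = 0.00489). Pgam2, the muscle mutase, stood at 336, 326 and 335 FPKM in WT and at 393, 342 and 380.0 FPKM in PKI. PKI replicate 2 was only slightly above the WT libraries. The log2 change of Pgam2 was 0.16 (SE 0.06, adjusted p = 0.0785), which did not pass, and −0.14 after scaling (adjusted p = 0.217). Without PKI replicate 2 it passed as deposited (log2 0.22, adjusted p = 0.0255).

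Eno1, the enolase of most non-neuronal tissues, stood at 8.10, 8.36 and 9.08 FPKM in WT and at 12.8, 11.7 and 12.6 FPKM in PKI. The groups did not overlap. Its mean was 1.46-fold higher in PKI (log2 0.49, SE 0.07, limma adjusted p = 0.00325), and after scaling the change was smaller and did not pass (log2 0.22, adjusted p = 0.0930). Eno3, the muscle enolase, stood at 308, 303 and 319 FPKM in WT and at 308, 263 and 288 FPKM in PKI. These ranges overlapped through PKI replicate 1. Eno3 did not pass as deposited (log2 −0.12, SE 0.07, adjusted p = 0.189) and was lower after scaling (log2 −0.42, adjusted p = 0.0104). Leaving out PKI replicate 2 brought the deposited log2 change to −0.0587 (adjusted p = 0.442), and leaving out the other libraries gave −0.17 to −0.0969, none passing.

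Ldhb, the heart-type lactate dehydrogenase subunit, stood at 472, 526 and 501 FPKM in WT and at 457, 427 and 434 FPKM in PKI. Every PKI library lay below every WT library, PKI replicate 1 by the smallest margin. The mean was 1.14-fold lower in PKI (log2 −0.19, SE 0.06, limma adjusted p = 0.0395), and the fall was larger after scaling (log2 −0.48, adjusted p = 0.00372). As deposited this call was lost when any library other than WT replicate 1 was left out (adjusted p = 0.0556 to 0.110). Ldha stood at 85.9, 88.4 and 93.3 FPKM in WT and at 98.3, 102.6 and 97.8 FPKM in PKI. As deposited, every PKI library lay above every WT library, but the change did not pass (log2 0.16, SE 0.06, adjusted p = 0.0606). After scaling the direction turned (log2 −0.14, adjusted p = 0.162), with every PKI library below every WT library.

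The ratio of the isoforms of an enzyme within a library does not depend on how that library is scaled. In each of the 3 enzymes where it could be computed, the ratio of the muscle or heart form to its partner was lower in every PKI library than in every WT library. Of single tested genes after scaling, 16.6% lay above WT and 20.7% below it without overlap. The share among ratios of other gene pairs was not computed. For phosphoglycerate mutase the ratio Pgam2 to Pgam1 was 23.3, 30.4 and 27.1 in WT and 14.7, 13.9 and 14.1 in PKI. On the log2 scale the mean ratio of Pgam2 to Pgam1 was lower by 0.91 in PKI (log2 change −0.91; SD 0.19 in WT and 0.04 in PKI, n = 3 each; exact two-sided permutation p = 0.1). The ratio Eno3 to Eno1 was 38.0, 36.2 and 35.1 in WT and 23.9, 22.4 and 22.8 in PKI. Its log2 change was −0.66 (SD 0.06 and 0.05, n = 3 each; exact two-sided permutation p = 0.1). The ratio Ldhb to Ldha was 5.49, 5.95 and 5.37 in WT and 4.64, 4.16 and 4.44 in PKI, with a log2 change of −0.34 (SD 0.08 and 0.08, n = 3 each; exact two-sided permutation p = 0.1). The p of 0.1 is the smallest that the 20 arrangements of 3 against 3 allow, and adjusted by Benjamini-Hochberg over the 3 ratios it was again 0.1. The aldolase ratio, planned as well, could not be formed.

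Expressed as a share of the pair's FPKM, Pgam1 went from 3.62% ± 0.471 (SD, n = 3) in WT to 6.57% ± 0.185 in PKI. Eno1 went from 2.67% ± 0.104 to 4.16% ± 0.133, and Ldha from 15.2% ± 0.679 to 18.5% ± 0.837. The muscle or heart form thus remained the main one in all 6 libraries. The sum of both mutases was 345 ± 7.29 FPKM in WT and 398 ± 27.5 in PKI, that of both enolases 318 ± 8.62 and 298 ± 22.8, and that of both dehydrogenase subunits 589 ± 28.7 and 539 ± 14.1 (SD, n = 3 each). As deposited, the mutase sums of PKI lay above WT, the dehydrogenase sums below it, and the enolase sums overlapped. The dehydrogenase sums came close, at 558 FPKM in the lowest WT library and 554.9 in the highest PKI library.

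**Figure D3:**
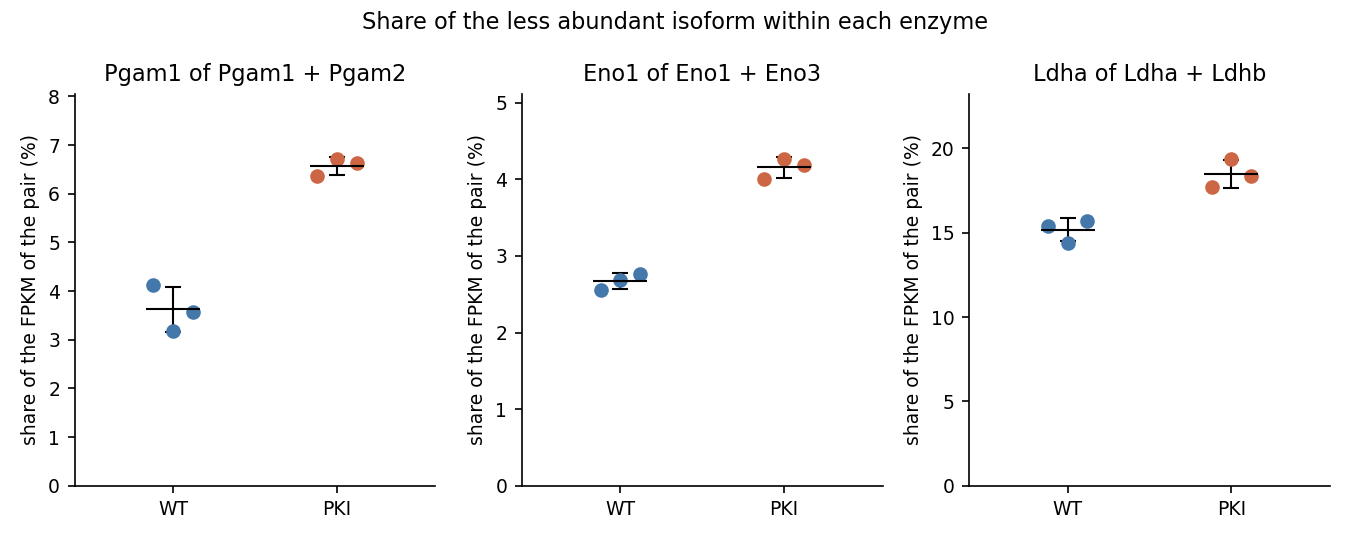
Share of Pgam1, Eno1 and Ldha in the summed FPKM of their isoform pair, in percent, for each of the 3 WT and 3 PKI libraries (points) with the mean and SD (black), axes starting at 0. In all 3 pairs the PKI libraries lie above the WT libraries.

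The promoters of these pairs are shown with their counts of CpG dinucleotides, which differ between the partners of the mutase and enolase pairs. Each line gives the 150 bases before a RefSeq start in GRCm38.p6, 5′ to 3′ in the direction of the gene. Capitals mark ACGTG or GCGTG, the core letters of the hypoxia response element, on either strand (CACGT or CACGC where on the opposite one), and the E-box CACGTG, which contains ACGTG on both strands.
Pgam2, chr11:5803797-5803946, minus strand: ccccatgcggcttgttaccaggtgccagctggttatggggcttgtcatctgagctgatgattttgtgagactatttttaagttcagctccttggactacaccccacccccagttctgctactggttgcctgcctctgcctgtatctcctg
Pgam1, chr19:41911721-41911870, plus strand: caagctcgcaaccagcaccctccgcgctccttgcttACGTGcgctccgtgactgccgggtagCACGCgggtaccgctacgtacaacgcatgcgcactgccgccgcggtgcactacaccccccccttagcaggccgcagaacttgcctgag
Eno3, chr11:70657026-70657175, plus strand: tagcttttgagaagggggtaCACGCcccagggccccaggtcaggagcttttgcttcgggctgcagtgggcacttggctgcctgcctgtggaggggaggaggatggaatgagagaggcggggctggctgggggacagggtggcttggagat
Eno1, chr4:150236558-150236707, plus strand: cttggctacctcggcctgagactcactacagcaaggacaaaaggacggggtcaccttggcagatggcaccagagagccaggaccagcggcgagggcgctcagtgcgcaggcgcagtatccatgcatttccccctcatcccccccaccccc
Ldhb, chr6:142507958-142508107, minus strand: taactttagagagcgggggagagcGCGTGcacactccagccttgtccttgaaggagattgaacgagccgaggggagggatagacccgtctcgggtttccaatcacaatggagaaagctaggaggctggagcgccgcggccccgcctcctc
Ldha, chr7:46845654-46845803, plus strand: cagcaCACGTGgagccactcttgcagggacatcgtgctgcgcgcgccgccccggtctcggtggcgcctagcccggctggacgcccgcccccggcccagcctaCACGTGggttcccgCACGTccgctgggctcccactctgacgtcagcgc
All 10 members matched the RefSeq promoter table, with 16 windows of 300 bases (250 before to 50 after a start). The window of Pgam1 held 30 CpG dinucleotides and that of Pgam2 held 1. The 3 windows of Eno1 held 14, 24 and 25 and that of Eno3 held 3, while the median over all 32851 windows was 7. The windows at the 2 starts of Ldha held 30 and 13, above and below the 17 of Ldhb. In GC content the stretches shown for Eno1 and Eno3 were alike, at 64% each. ACGTG was found in 6 of 10 members (Aldoa, Aldoc, Gapdh, Ldha, Pgam1 and Pgk1), against 21.8% of all 27025 genes in the table. ACGTG or GCGTG was found in 9 of 10, all but Pgam2, against 46.7% of all genes. By window, ACGTG was in 7 of 16 (19.6% of all windows) and either core in 14 of 16 (43.8%). Both cores contain a CpG, and the share among windows of like CpG content was not computed. CACGTG was found in 1 member, Ldha, against 8.09% of all genes. The estrogen-related receptor motif TNAAGGTCA and the MEF2 site were found in 0 of 10 members, against 1.43% and 0.636% of all genes. For Eno1 the stretch before the first start is shown, which holds no match, since the stretches before its other starts lie in annotated exons. For Ldha the first of its 2 starts is shown as well. The stretch before its other start, not in an annotated exon, holds 1 match, CACGC. These are matches of letters in windows and were not tested for binding.

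Aldoa, the aldolase of muscle, stood at 228, 243 and 237 FPKM in WT and at 287, 261 and 263 FPKM in PKI. The groups did not overlap. The mean was 1.15-fold higher in PKI (log2 0.19, SE 0.06, limma adjusted p = 0.0350), and the direction turned after scaling (log2 −0.10, adjusted p = 0.316). As deposited this call was lost when any library other than PKI replicate 2 was left out (adjusted p = 0.0555 to 0.101). Aldoc was listed at 0 in the 3 WT libraries and in PKI replicate 3, and at 0.0471 and 0.0482 FPKM in PKI replicates 1 and 2, too low for a test.

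Gapdh, which encodes the dehydrogenase that makes the first NADH of the pathway and is often used as a reference gene, stood at 266, 269 and 261 FPKM in WT and at 341, 310.4 and 316 FPKM in PKI. The groups were well apart, and the mean was 1.22-fold higher in PKI (log2 0.28, SE 0.05, limma adjusted p = 0.00840). After scaling the log2 change was −0.02 (95% interval −0.151 to 0.115, adjusted p = 0.864). Pgk1, phosphoglycerate kinase, stood at 70.8, 66.5 and 74.6 FPKM in WT and at 85.5, 87.7 and 85.4 FPKM in PKI. It too was 1.22-fold higher as deposited (log2 0.29, SE 0.06, adjusted p = 0.0117), and after scaling its log2 change was −0.01 (95% interval −0.155 to 0.136, adjusted p = 0.937). Both genes therefore moved as the bulk of tested genes did.

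**Figure D4:**
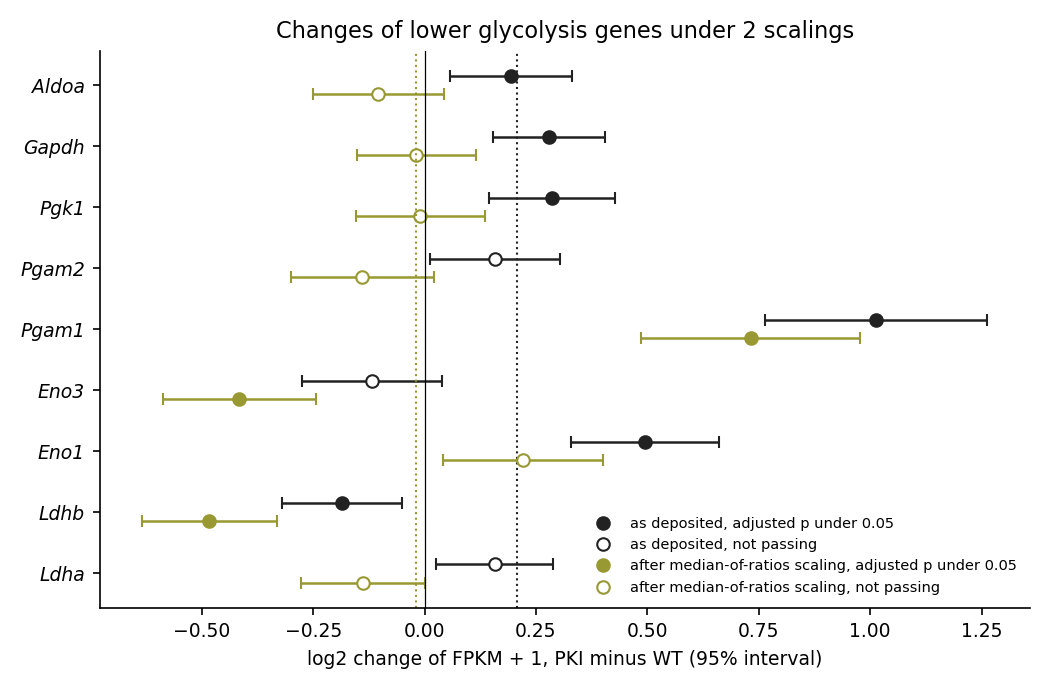
Log2 change (PKI minus WT) with its 95% interval from limma for the 9 tested members, as deposited (black) and after scaling (olive), with filled points at an adjusted p under 0.05 and dotted lines at the median of all tested genes (0.21 and −0.02). Pgam1 and Ldhb keep their call in both, and Aldoa, Gapdh, Pgk1, Pgam2 and Ldha change sign.

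Several members have near-identical copies elsewhere in the genome, and how the authors' counting divided reads between them is not given in the sources used here. Gapdh had 77 such rows in the table (at least 95% identity over at least 200 aligned bases), of which 69 were above 0 in some library. Their summed level was 235.5 to 239 FPKM in WT and 245 to 305 FPKM in PKI, between 78.9% and 90.3% of the level of Gapdh itself. The pseudogene Pgam1-ps2, identical to Pgam1 over its aligned length, was listed at 42.9% to 51.7% of Pgam1. The 2 copies of Pgk1 in the table, Pgk1-rs7 and Gm5537, summed to 23.5% to 26.4% of Pgk1, and the copies of Eno1, nearly all from Gm4735, to 34.4% to 41.7% of Eno1. Levels of these members are uncertain for that reason. With the copies added, the changes were close to those above: log2 0.25 for Gapdh (limma adjusted p = 0.0214), 1.00 for Pgam1 (0.00159), 0.29 for Pgk1 (0.0104) and 0.53 for Eno1 (0.00342), and the ratio changes were −0.88 for Pgam2 to Pgam1, −0.68 for Eno3 to Eno1 and −0.35 for Ldhb to Ldha. No copy of Pgam2, Eno3 or Aldoa met the rule. The partners of a pair were themselves further apart, with coding sequences 74.8% identical for Pgam2 and Pgam1, 76.7% for Eno3 and Eno1, and 71.7% for Ldhb and Ldha, and no identical run longer than 28 bases in these 3 pairs.

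Gene positions come from GENCODE M21 (GRCm38), matched on the Ensembl identifier, since the table holds none. Pgam1 (ENSMUSG00000011752) lies on chromosome 19: 41911923 to 41918660 and Pgam2 (ENSMUSG00000020475) on chromosome 11: 5801640 to 5803733. Eno1 (ENSMUSG00000063524) lies on chromosome 4: 150236721 to 150248879 and Eno3 (ENSMUSG00000060600) on chromosome 11: 70657202 to 70662513. Ldha (ENSMUSG00000063229) lies on chromosome 7: 46841475 to 46855627 and Ldhb (ENSMUSG00000030246) on chromosome 6: 142490249 to 142507957. Aldoa (ENSMUSG00000030695) and Gapdh (ENSMUSG00000057666) lie on chromosome 7: 126795234 to 126800751 and chromosome 6: 125161715 to 125166467, Pgk1 (ENSMUSG00000062070) on chromosome X: 106187100 to 106203699 and Aldoc (ENSMUSG00000017390) on chromosome 11: 78322968 to 78327781. All 10 members are annotated as protein-coding. Aldoa and Gapdh each overlap 1 gene on the other strand, Fam57b and Iffo1, with mean levels of 0.773 and 0.816 FPKM. The library kit does not mark strand, so reads from sequence that both genes share cannot be told apart by strand. Whether exons of these genes overlap was not examined.

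Among the other glycolysis enzymes and isoforms, 10 of 17 listed genes were tested, of which 5 rose (Hk1, Gpi1, Pfkl, Pfkp and Tpi1) and 2 fell (Pfkm and Ldhd). After scaling 1 rose (Pfkp) and 4 fell (Hk2, Pfkm, Pkm and Ldhd). The median log2 change of these genes was 0.16, and −0.09 after scaling. Over all tested genes 36.4% rose and 2.96% fell as deposited, and 7.82% and 9.18% after scaling. Genes in these counts beyond Pfkp, Hk1, Tpi1 and Ldhd were named after their values were seen. The platelet-type phosphofructokinase gene Pfkp was 2.82-fold higher (1.31 ± 0.0433 and 3.71 ± 0.631 FPKM, SD, n = 3 each; limma adjusted p = 0.00107) and rose after scaling too (log2 0.81, adjusted p = 0.00273). The muscle-type gene Pfkm fell (187 ± 6.37 and 165 ± 3.42 FPKM; adjusted p = 0.0291). Hk1, the hexokinase of most tissues, rose (10.6 ± 0.697 and 16.0 ± 1.27 FPKM; adjusted p = 0.00354), with an adjusted p of 0.0553 after scaling. Tpi1, the isomerase that interconverts the triose phosphates, rose 1.27-fold (123 ± 6.93 and 156 ± 6.92 FPKM; adjusted p = 0.00737), with an adjusted p of 0.619 after scaling. The other gene that fell was Ldhd, a mitochondrial lactate dehydrogenase (6.73 ± 0.830 and 5.20 ± 0.142 FPKM; adjusted p = 0.0324). Bpgm, which makes 2,3-bisphosphoglycerate in red blood cells, was at log2 0.10 (adjusted p = 0.428). The neuronal enolase gene Eno2 was below the level for testing, at 0.145, 0.0763 and 0.0440 FPKM in WT and 0.279, 0.210 and 0.290 FPKM in PKI. The testis forms Gapdhs and Pgk2, and Eno4, were at 0.112 FPKM or less in every library, and Ldhc was listed at 0 throughout.

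Of 9 tested genes that control glycolytic flux or the glycerol phosphate branch, 3 rose and 1 fell. After scaling 0 rose and 4 fell (Pfkfb1, Pfkfb2, Slc2a4 and Gpd1l, the last 3 named after their values were seen). The median log2 change here was −0.00178 as deposited and −0.24 scaled. For this list and the next, the shares of all tested genes that rose and fell were 36.4% and 2.96%. After scaling these shares were 7.82% and 9.18%. Pfkfb1, which sets the level of an activator of phosphofructokinase, fell from 2.44 ± 0.593 to 0.449 ± 0.218 FPKM (limma adjusted p = 0.00226). The glucose transporter gene Slc2a1 rose 1.53-fold (adjusted p = 0.01001), Tigar, a phosphatase that opposes glycolysis, 1.29-fold (adjusted p = 0.0197), and the glycerol phosphate dehydrogenase gene Gpd1, named after its values were seen, was at log2 0.34 (adjusted p = 0.0212). None of these 3 passed after scaling. Of 17 tested genes of pyruvate and lactate fate, 3 rose (Pdhx, Bsg and Slc16a1) and 1 fell, against 0 and 9 after scaling. Their median log2 change was 0.03, and −0.27 scaled. The gene that fell was Pdk2, an inhibitory kinase of pyruvate dehydrogenase, at 84.2 ± 6.04 and 65.8 ± 3.03 FPKM (adjusted p = 0.0105). Bsg, the chaperone of lactate transporters, was 1.19-fold higher (adjusted p = 0.0425), and the lactate transporter gene Slc16a1, named after its values were seen, was at log2 0.41 (adjusted p = 0.0454), with overlapping groups.

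Of 16 tested transcription regulators known to act on glycolysis genes, 2 rose and 1 fell. After scaling 0 rose and 5 fell (Epas1, Egln1, Mef2d, Klf15 and Ppargc1a, of which Epas1, Egln1 and Mef2d were named after their values were seen). Over all tested genes 36.4% rose and 2.96% fell as deposited, and 7.82% and 9.18% after scaling. Hif1a, the oxygen-regulated factor that binds the hypoxia response element, went from 10.5 ± 0.978 to 15.9 ± 2.01 FPKM (log2 0.56, limma adjusted p = 0.00815; 0.28 after scaling, adjusted p = 0.0940). Egln3, a prolyl hydroxylase that marks HIF proteins for breakdown, was at log2 0.31 (adjusted p = 0.0437; 0.04 after scaling). Klf15, a metabolic factor of the heart, fell from 9.35 ± 1.42 to 6.89 ± 0.161 FPKM (adjusted p = 0.0239).

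Markers of other cell types moved beside these genes. The counts below stand against 36.4% of all tested genes that rose and 2.96% that fell as deposited. After scaling these shares were 7.82% and 9.18%. Of 8 fibroblast markers 7 rose, with summed levels of 86.3 to 127.6 FPKM in WT and 256 to 333 in PKI, and of 8 macrophage markers 7 rose, with sums of 68.8 to 107.1 and 208 to 225 (7 and 6 after scaling). In bulk tissue more cells of a type cannot be told apart from more RNA per cell. The part of these cells in the changes of Pgam1, Eno1 and the isoform ratios was not tested. Of 8 endothelial markers 2 rose, Pecam1 and Flt1 (sums 70.5 to 75.04 and 79.4 to 86.5), while after scaling 0 rose and 1, Kdr, fell. Of 7 smooth muscle and pericyte markers 4 rose, Acta2, Tagln, Rgs5 and Notch3 (sums 118 to 146 and 182 to 220.2), and after scaling 1, Acta2. Of 6 tested red blood cell markers 5 fell (sums 384 to 541 and 278 to 342). Of 12 skeletal muscle markers only Acta1 and Mybpc2 reached the level for testing, and both rose (sums 55.0 to 104.6 and 403 to 467). The fast myosin gene Myh4 was at 0 in every library, and Myh1 and Myh2 had group means of 0.00872 FPKM or less. Of 7 neuron and Schwann cell markers only Tubb3 was tested, and it rose (sums 1.46 to 2.25 and 3.86 to 4.54). Of 5 tested atrial markers 1 rose, Nppa, which ventricles also express under load (means 261 and 1088 FPKM). The sums of this list, 274 to 477 and 669 to 1500.3 FPKM, were mostly Nppa, and the median log2 change of the 5 was −1.49. Myl4 (log2 −1.49, limma adjusted p = 0.117) and Sln (log2 −1.72, adjusted p = 0.0723) did not pass. The atrial light chain gene Myl7 stood at 74.3, 40.5 and 91.3 FPKM in WT and at 6.61, 14.8 and 81.9 FPKM in PKI, with PKI replicates 1 and 2 below the other libraries (log2 −1.62, adjusted p = 0.144).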

How the data were processed

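RNA from left ventricles was sequenced in 6 libraries with the Illumina TruSeq RNA kit, per the labels' protocols. The deposited values are FPKM, 1 per gene and library, as the authors' table is named. CASAVA, Bowtie 0.12.2 and build mm9 are listed per the submitters' processing notes, with no role. The program behind the values is not given in the sources used here. Both deposited gene tables held identical values. Depth is unknown. The commonest ratio among genes under 0.3 FPKM, shared by 1.15% to 2.03% of them in a bin of 0.01 (log2), would put the other libraries at 0.829 to 0.927 of the depth of WT replicate 1. Summed FPKM were 708058 to 767757.

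Genes averaging 1 FPKM or more (9907) were tested on log2(FPKM + 1), which understates changes of low genes, with limma 3.58.1 in R 4.3.3, two-sided, with a variance trend and Benjamini-Hochberg adjustment. Fold values are ratios of mean FPKM. Size factors used genes above 0 in every library. Isoform ratios were compared by exact permutation. Copies were found with BLAST 2.17.0 in GENCODE M21 transcripts, an alternative chosen after seeing the data. Of the table's identifiers 99.72% are in GENCODE M21. A symbol on several rows was taken from the row with the highest mean. Named genes were the members, Ppargc1a, the 3 genes of each pathway list with the smallest p, and genes of the same enzymes. Some genes of the list of other glycolysis enzymes are not reported here and were left out of its counts. Members and lists were chosen with earlier results of these data known. The fit was tested on simulated data. Alternatives covered pseudocounts, filters, scalings, the variance trend, blocking on the replicate number, and omitting each library in turn.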

Additional observations from a re-analysis of the deposited data

How the results depend on the processing

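As deposited 3902 genes were called. The count was 1684 after median-of-ratios scaling (775 higher and 909 lower), 1515 under quantile normalisation (753 and 762), 1622 with libraries scaled to the total without mitochondrial genes and their copies (1019 and 603) and 1925 at a minimum mean of 5 FPKM, where 3935 genes were tested. Leaving out 1 library gave 2344 (without WT replicate 3) to 3425, with 2498 without PKI replicate 3.

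The 3 isoform ratios kept their direction under all 11 alternatives run for each, from −1.01 to −0.75 for Pgam2 to Pgam1, −0.69 to −0.52 for Eno3 to Eno1 and −0.38 to −0.30 for Ldhb to Ldha. Most of these could not reverse a ratio. Omitting a library could not, as the groups did not overlap, and the replicate block leaves the mean difference as it is. Adding rows named as retrogenes of a member could not change these 3 values. The only row so added to these pairs, Eno1b, was listed at 0 in every library. Pgam1 kept its direction and call under all 16 alternatives (log2 0.73 to 1.12). After median-of-ratios scaling the log2 change reversed for Aldoa (−0.10), Gapdh (−0.018), Pgk1 (−0.0094), Pgam2 (−0.14) and Ldha (−0.14), none of them passing. Eno1 no longer passed (0.22) and Eno3 passed (−0.42). Scaled to the total without mitochondrial genes and copies, Aldoa (−0.018), Pgam2 (−0.054) and Ldha (−0.054) reversed, Gapdh (0.067) and Pgk1 (0.075) no longer passed and Eno3 passed (−0.33). Under this scaling Eno1 stayed called (0.30, limma adjusted p = 0.0279). With quantile normalisation Ldha reversed (−0.034), Aldoa (0.031), Gapdh (0.15), Pgk1 (0.11) and Eno1 (0.25) no longer passed and Eno3 passed (−0.25). Aldoa at 0.19 and Ldhb at −0.19 no longer passed without a filter (limma adjusted p = 0.0673 and 0.0854) or without a variance trend (0.0618 and 0.0737). The cause of these changes was not tested. Over all alternatives the adjusted p was 0.0316 to 0.868 for Aldoa, 0.00282 to 0.110 for Ldhb and 0.00214 to 0.0930 for Eno1.

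Leaving out 1 library gave log2 changes of 0.15 to 0.22 for Aldoa, −0.23 to −0.15 for Ldhb and 0.12 to 0.22 for Pgam2, with calls gained or lost as stated in the report. Eno1 (0.46 to 0.54), Gapdh (0.24 to 0.31) and Pgk1 (0.24 to 0.33) stayed called.

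Same-numbered libraries did not vary together (correlations of deviations −0.104, 0.00115 and 0.0529), against −0.128 to 0.112 between WT and PKI libraries of unlike number. With 3 libraries per group such correlations cannot exclude that the numbers pair them. With the replicate block the log2 changes were unchanged and Aldoa (0.19, adjusted p = 0.0903) and Ldhb (−0.19, 0.0967) lost their calls. The blocked ratio changes were −0.91, −0.66 and −0.34, each with an exact sign-flip permutation p = 0.25, the smallest that 3 pairs allow. Depth is unknown, and levels near that of Aldoc are limited by it.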
